A study of Mus musculus with 8 samples.

Results

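Lipoxygenases and cyclooxygenases turn arachidonic acid, a fatty acid released from membranes by phospholipases, into signaling lipids. Lipoxygenases add oxygen to the chain and lead to leukotrienes, hydroxy fatty acids and hepoxilins, whereas cyclooxygenases lead to prostaglandins and thromboxane. In the cornea, lipoxygenase and prostaglandin products are known for their part in epithelial wound repair and inflammation, and in skin a pair of lipoxygenases helps to build the lipid barrier.

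The 9 genes described here are 6 lipoxygenase genes (Alox5, Alox12, Alox12b, Alox12e, Alox15 and Aloxe3), both cyclooxygenase genes (Ptgs1 and Ptgs2) and the prostaglandin E synthase gene Ptges. They were chosen by symbol, after earlier results of the cornea against limbus contrast in these data were known. All 9 symbols were found among the 23393 gene symbols of the deposited table. Corneal buttons, the cornea inside the limbus, and limbal rims, the ring that joins cornea and sclera, were dissected from wild type C57BL/6J mice of 8 weeks and pooled by tissue before RNA extraction. The labels list 8 samples, 4 of the corneal button and 4 of the limbal rim, and no treatment is given for either group. The titles number the samples L001 to L004 within a tissue, a form often used for sequencing lanes, and whether they are lanes of 1 library per tissue is not stated. The deposited means fit 2 libraries and not 8, as described below, so the 4 samples per tissue were not separate replicates in them.

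The deposited table holds 1 level per gene, the authors' mean of the normalized reads over cornea and limbus together, and no value for a single sample. Its remaining numbers belong to the authors' own contrast of the tissues and were not used. No test and no direction of a difference between cornea and limbus is therefore given. Low means moved in 2 step sizes, 0.484 and 0.517, and 99.8% of the means above 0 lay on the grid formed by sums of both steps, to within 0.001 of its unit of 0.00474. The means are therefore written here as reads of 2 libraries, and which library came from which tissue is not given by the labels or by the column used. The mean covers cornea and limbus, which would leave 1 library for each. Reads printed per library then hold a difference between the tissues of unknown direction, without replicates. For each gene the total reads of both libraries follow from the mean exactly or within a narrow range. The 95% confidence intervals (CI) are exact Poisson intervals of the lowest possible total of each gene. They allow for counting error alone, since amplified reads that carry no molecular identifier may stem from 1 molecule. There is no replicate error for any value.

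Markers of corneal and limbal epithelium and of keratocytes were among the genes with the most reads. The 5 corneal epithelial markers had means from 14207 to 670897, led by Krt12, and the 5 markers of limbal and conjunctival epithelium had means from 16574 to 201136. The 4 keratocyte markers, of the stromal cells of the cornea, lay between 4364 and 38077. The 3 corneal endothelial markers were lower, between 438 and 2872. Reads of other cell types were present as well. Means were 51.7 to 657 for the 5 leukocyte and macrophage markers, 30.9 to 71.8 for the mast cell markers Cpa3, Tpsb2 and Mcpt4 and 813 to 1620 for the 3 skeletal muscle markers. Kit, which is listed with the mast cell markers but is also made by other cells, had a mean of 3786. In pooled tissue, fewer cells of a type and less RNA per cell cannot be told apart.

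The lipoxygenases share a conserved coding stretch, which is shown because reads of one gene could be counted for another only where sequences are alike. The longest exact match between any pair of the 6 genes was 29 bases, between Alox12b and Aloxe3. The most similar window of each other gene was found by script, and all 6 windows start on a codon boundary. The windows, read 5′ to 3′ from the GENCODE transcripts of GRCm38, are given below with bases equal to those of Alox12b in capitals.
Alox12b: GAGGACAGCTTCTTTGGGTACCAGTACCT
Aloxe3: GAGGACAGCTTCTTTGGGTACCAGTACCT
Alox15: GAGGAtgctTTCTTTGGGTACCAGTttCT
Alox12e: GAaGAtgctcTCTTTGGGTACCAGTtCCT
Alox5: GAaGACctCaTgTTTGGcTACCAGTtCCT
Alox12: GAaGAtgaacTCTTTGGcTACCAGTtCCT

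Each window lies within 1 coding exon. It is at chr11:69163950-69163978 (plus strand) in Alox12b, chr11:69133052-69133080 (plus strand) in Aloxe3 and chr11:70349653-70349681 (minus strand) in Alox15. In Alox12e it is at chr11:70320839-70320867, in Alox12 at chr11:70252507-70252535 and in Alox5 at chr6:116423264-116423292, all on the minus strand. Alox15 shared 23 of the 29 bases with Alox12b, Alox12e and Alox5 shared 22, and Alox12 shared 21. Over the whole coding sequence the closest pair of lipoxygenases was Alox12e and Alox15, with 69.3% identical bases, and the longest exact match of that pair was 16 bases. Reads were 75 bases long per end. No stretch of 75 bases in the transcripts of any of the 9 genes was found in the same orientation in a transcript of another gene. At this read length the annotation gives no exact sequence in the same orientation through which the genes could share reads. The opposite orientation was not searched, and Ptgs1 shares 148 exon bases with an unclassified transcript on the opposite strand.

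The 3 lipoxygenase genes Alox12e, Alox12 and Alox15 carried nearly all lipoxygenase signal. Alox12e, the epidermal-type 12-lipoxygenase gene, had a mean of 3457 normalized reads (95% CI 3375 to 3541) from between 6690 and 7145 reads in all. Alox12, which encodes the platelet-type enzyme, had a mean of 1416 (95% CI 1363 to 1469.9) from between 2744 and 2926 reads. Alox15, which encodes the leukocyte-type 12/15-lipoxygenase, had a mean of 1371 (95% CI 1319.7 to 1425). These means do not allow for gene length. Per kb of exon, the levels were 1223 normalized reads for Alox12e (95% CI 1194 to 1253), 559 for Alox15 (95% CI 538 to 581) and 347 for Alox12 (95% CI 334 to 359.8). Per kb the level of Alox12e was thus 2.19 times that of Alox15 and 3.53 times that of Alox12, and these 3 intervals did not overlap. The order of Alox15 and Alox12 rested on the length used. With the length of the longest coding sequence in place of the exons, Alox12e stood at 1741 per kb, Alox12 at 712 and Alox15 at 689. The ratios above therefore depend on the length as well, which the intervals do not cover.

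The other 3 lipoxygenases were low. Alox5, the 5-lipoxygenase that starts leukotriene synthesis, had a mean of 42.4 (95% CI 33.8 to 52.5) from 84 reads, 30 in one library and 54 in the other. Alox12b encodes the 12R-lipoxygenase of the epidermal barrier and had a mean of 4.42 (95% CI 2.02 to 8.39) from 9 reads, 7 and 2. Aloxe3 encodes the enzyme that acts on the product of Alox12b, and its mean of 6.69 (95% CI 3.56 to 11.4) came from 13 reads, 1 and 12. In each of these pairs the first number is from the library with the larger size factor. No tissue was put to either, since the labels and the column used do not give it. Per kb of exon, Alox5 stood at 10.3 normalized reads (95% CI 8.24 to 12.8), Alox12b at 1.82 (95% CI 0.831 to 3.45) and Aloxe3 at 1.05 (95% CI 0.557 to 1.79). The intervals of Alox12b and Aloxe3 overlapped, so their order was not detectable at this depth. Of the summed lipoxygenase level per kb of exon, a measure that depends on the length used, Alox12e held 57.1%, Alox15 26.1% and Alox12 16.2%, together 99.4%. Alox5 held 0.482%, Alox12b 0.0849% and Aloxe3 0.0488%.

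Among the prostaglandin genes, Ptgs1 and Ptges had similar levels and Ptgs2 was low. Ptgs1, the cyclooxygenase that most tissues make at rest, had a mean of 813 normalized reads (95% CI 773 to 854) from between 1577 and 1675 reads. Ptges, which encodes the microsomal synthase that makes prostaglandin E2 from the cyclooxygenase product, had a mean of 783 (95% CI 744 to 824). Ptgs2, the inducible cyclooxygenase, had a mean of 30.02 (95% CI 22.9 to 38.6) from 60 reads, 30 in each library. Per kb of exon, Ptgs1 stood at 209 (95% CI 199 to 219.9), Ptges at 199 (95% CI 189 to 209) and Ptgs2 at 6.55 (95% CI 5.001 to 8.44). The intervals of Ptgs1 and Ptges overlapped. Ptgs1 was 31.9 times the level of Ptgs2 per kb and held 96.96% of the cyclooxygenase signal. The coding sequences of Ptgs1 and Ptgs2 shared 67.6% of their bases and no exact stretch over 14 bases. Ptges depended most on the length used, since its exons measure 3.93 kb and its coding sequence 0.459 kb. Per kb of coding sequence it stood at 1706, next to 1741 for Alox12e.

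**Figure D1:**
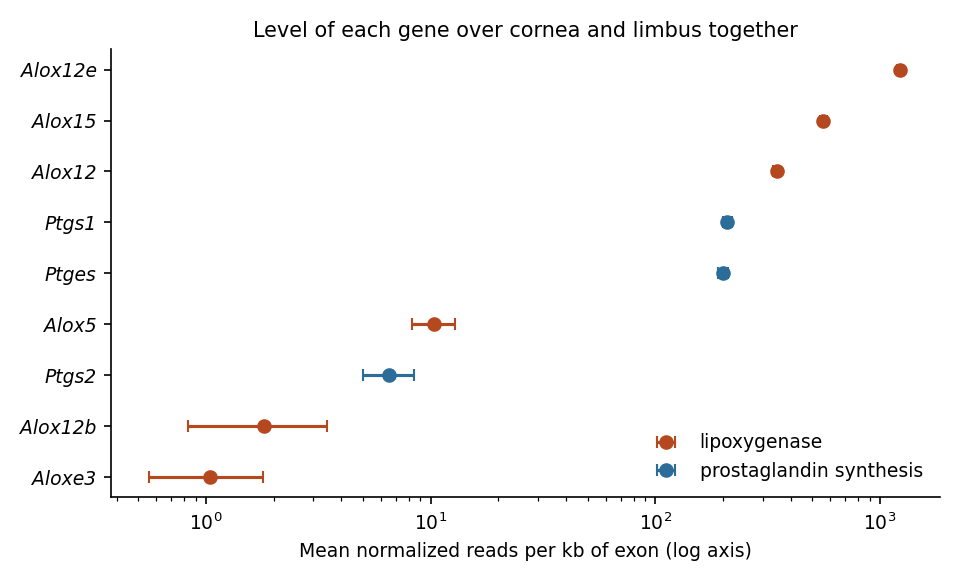
The x axis gives the authors' mean over cornea and limbus, in normalized reads per kb of exon on a log axis, and each row is 1 gene. Bars are 95% exact Poisson intervals of the reads and cover counting error only. Alox12e is highest at 1223, and Alox12b and Aloxe3 lie lowest, near 1.82 and 1.05, with overlapping bars.

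The 9 genes fell into a high and a low set with a wide gap between Ptges at 199 and Alox5 at 10.3 per kb, a ratio of 19.3. Of 15263 protein-coding genes with reads and an exon length, Alox12e had a higher level per kb than 94.8%, Alox15 than 88.1% and Alox12 than 81.5%. Ptgs1 lay above 72.1% and Ptges above 71.2% of them. Alox5 lay above 26.3%, Ptgs2 above 22.6%, Alox12b above 13.9% and Aloxe3 above 10.6%. The median gene stood at 71.3 normalized reads per kb, so 5 of the 9 genes were above it. In the whole order by level per kb, the neighbors whose intervals overlapped were Ptgs1 and Ptges, Alox5 and Ptgs2, and Alox12b and Aloxe3.

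**Figure D2:**
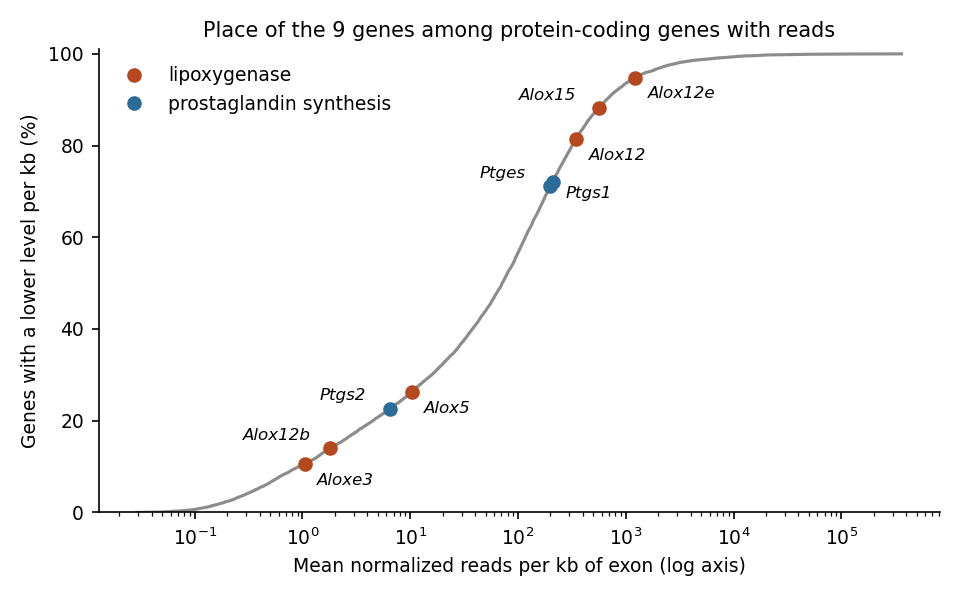
The gray line gives, for each level per kb of exon on the x axis (log), the percentage of the 15263 protein-coding genes with a lower level. Circles mark the 6 lipoxygenase and 3 prostaglandin synthesis genes, of which 5 lie above the median gene at 71.3 and 4 far below it.

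Of the 6 lipoxygenase genes, 5 lie on chromosome 11 of GRCm38 in 2 groups. Alox12 (70241457 to 70255353), Alox12e (70315610 to 70322628) and Alox15 (70344152 to 70352031) follow each other on the minus strand, with gaps of 60.3 and 21.5 kb. Their means were 1371 normalized reads or more. Aloxe3 (69125896 to 69149115) and Alox12b (69156989 to 69169792) lie 7.87 kb apart on the plus strand, next to the related gene Alox8 (69183932 to 69197843). Alox8, which encodes the mouse 8-lipoxygenase, was added from the list of related genes and had a mean of 1.03 from 2 reads. Between Alox8 and Alox12 lie 1044 kb. No other annotated gene overlaps any of the 5. Alox5 is on chromosome 6 (116410077 to 116461178), Ptgs2 on chromosome 1 (150100031 to 150108227), and Ptges (30889471 to 30929863) and Ptgs1 (36230426 to 36252272) are on chromosome 2. Ptgs1 shares 148 exon bases with Gm43621, an unclassified transcript on the opposite strand. The library kit keeps strand, but whether the counting used it is not given in the sources used here.

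**Figure D3:**
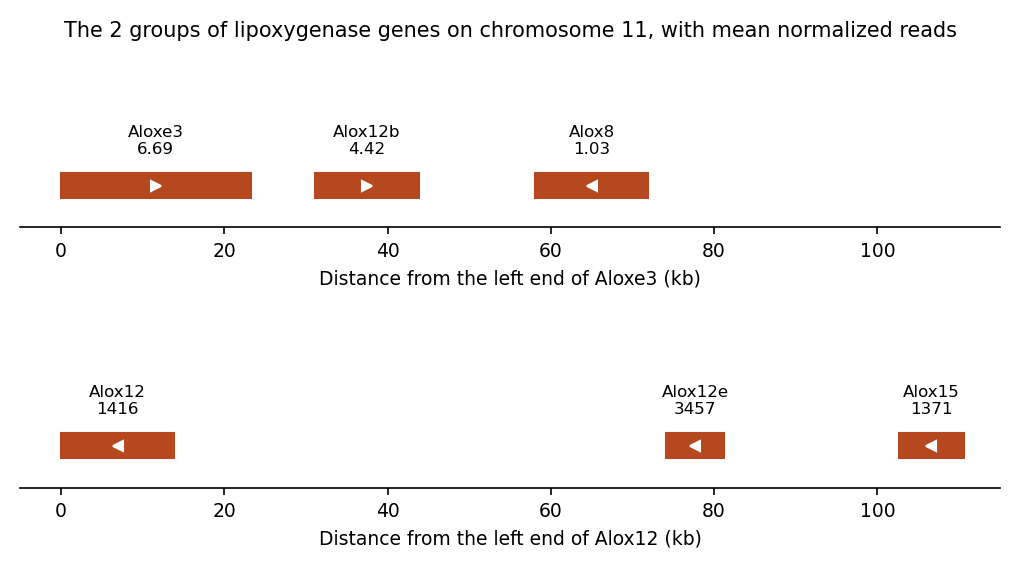
Gene bodies of the 2 groups on chromosome 11 are drawn to scale by distance in kb from the left end of the first gene of each group, and white triangles point in the direction of transcription. The number above each bar is the mean in normalized reads, from 1.03 to 6.69 in the upper group and from 1371 to 3457 in the lower group.

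For the step before the lipoxygenases and cyclooxygenases, which not every phospholipase A2 serves, a list of 18 phospholipase A2 genes was read. Of these, 8 had a mean of at least 10 normalized reads (59.5% of all 23393 symbols did), the median mean was 7.45 and 4 were listed at 0 (Pla2g1b, Pla2g2a, Pla2g4d and Pla2g10). For a gene without reads, the limit of detection is taken as 3 reads in a library. The highest means were those of Pla2g4a, the cytosolic phospholipase that releases arachidonic acid, at 1471 (230.1 per kb) and of Pla2g7, which cleaves platelet-activating factor, at 975 (336 per kb). The lowest mean above 0 was that of Pla2g12b at 1.03, or 0.875 per kb.

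For leukotriene synthesis, 8 of 10 listed genes had a mean of at least 10, and the median mean was 35.7. Mgst3, a microsomal glutathione transferase, had a mean of 2440 (2224 per kb). Lta4h, the hydrolase that makes leukotriene B4, had a mean of 2434 (399 per kb). Alox5ap, whose product presents arachidonic acid to 5-lipoxygenase, had a mean of 45.3 (31.9 per kb) beside 42.4 (10.3 per kb) for Alox5, and both genes are named here after their values were seen side by side. Alox8 was the lowest of the list.

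Aloxe3 and Alox12b act in skin with further genes of the lipid barrier, and 7 of 8 such genes had a mean of at least 10, with a median mean of 364. Cers3, a ceramide synthase for very long chains, had a mean of 1902 (584 per kb). Tgm1, the transglutaminase of the cornified envelope, had a mean of 1593 (504 per kb). Abca12, a lipid transporter of the epidermis, had 1 read in all, a mean of 0.484 and 0.0327 per kb. Pnpla1, a lipase of the barrier, had 26 reads and Nipal4 68, beside 13 for Aloxe3 and 9 for Alox12b, and both were picked with their values in view. Of the epidermal keratinization markers, Krt10 had a mean of 243 and Krt1 of 162, whereas Lor and Krt2 had 3 reads each. Flg was not found among the 23393 symbols used.

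Among 9 other prostanoid synthase genes, 7 had a mean of at least 10 and the median mean was 463. The highest were Hpgds, the hematopoietic prostaglandin D synthase, at 3279 (510.3 per kb) and Ptges3, which encodes the cochaperone p23, at 1999 (901 per kb). Akr1b3, the aldose reductase, was the lowest with 1 read, a mean of 0.517 and 0.0616 per kb. All 5 genes of prostaglandin transport and inactivation had a mean of at least 10, and their median mean was 1225. They were led by Ptgr1, a prostaglandin reductase, at 14597 (6358 per kb) and Abcc4, an efflux transporter, at 2550.3 (399 per kb). Hpgd, the dehydrogenase that inactivates prostaglandins, was the lowest at 84.3 (50.1 per kb).

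The receptor lists had low means, with medians of 14.5 for prostanoid receptors and 8.64 for receptors of lipoxygenase products. Of 9 prostanoid receptor genes, 5 had a mean of at least 10, and 3 had no more than 3 reads. The highest were Ptger4, a prostaglandin E2 receptor, at 67.2 (10.1 per kb) and Ptgir, the prostacyclin receptor, at 62.8 (18.8 per kb). Ptgdr2, listed under its older symbol Gpr44, was the lowest with 1 read. Of 8 receptor genes for lipoxygenase products, 4 had a mean of at least 10. The leukotriene B4 receptor genes Ltb4r2 and Ltb4r1 had means of 206 (55.5 per kb) and 204 (146 per kb). Cysltr2, a receptor for cysteinyl leukotrienes, had 1 read, and Oxgr1 and Fpr2 were listed at 0. Gpr31b, the receptor gene for 12-HETE, a main product of the 12-lipoxygenases, had 1 read in all. Over the 7 lists, 44 of 67 genes (65.7%) had a mean of at least 10 normalized reads, beside 59.5% of all symbols. That share is also the one to set beside the count of each list. The median mean over all symbols was 56.9.

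**Figure D4:**
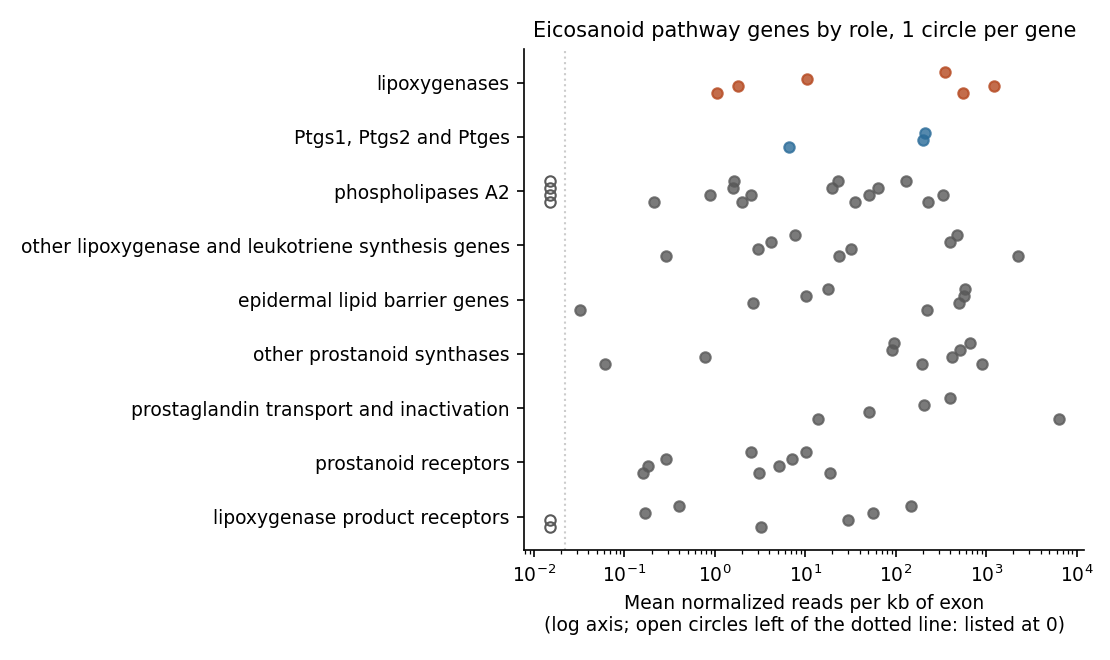
Each circle is 1 gene at its mean over cornea and limbus in normalized reads per kb of exon (log axis), in rows by role, with the 9 genes in color and 66 of the 67 listed pathway genes in gray. Open circles left of the dotted line mark the 6 genes listed at 0. Ptgr1 is the highest circle at 6358 per kb, and prostanoid receptors reach 18.8.

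Alox12 is also a gene of platelets, Alox15 of macrophages and Alox5 of several leukocytes, and markers of these cells were read from the same column. Of 4 platelet and megakaryocyte markers, Itga2b had a mean of 273 and Pf4 of 43.5, while Gp1ba and Gp9 had 1 read each. Per kb, Itga2b stood at 50.04 and Pf4 at 60.4, beside 347 for Alox12. The 5 leukocyte and macrophage markers ranged from 2.82 per kb for Ptprc to 499 per kb for Lyz2, beside 559 for Alox15 and 10.3 for Alox5. The value of Ptprc depended on the length used. Per kb of the longest transcript, Ptprc stood at 9.01 and Alox5 at 11.9. With 1 level per gene, the part of these cells in the lipoxygenase levels was not tested.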

How the data were processed

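Adaptors were trimmed and reads mapped to GRCm38 (mm10) by the authors in CLC Genomics Workbench, per the paper's methods. The methods name trimmed means of M-values for normalization, and whether the deposited means were scaled that way is not stated. The authors deposited 1 table, whose used column is a mean signal, the average of library reads after scaling by size factors. The labels give 4 samples per tissue numbered L001 to L004, and no column belongs to a sample. Columns of the authors' contrast (fold change, its standard error, p-values and a status) were not used. No test was made, and no library was assigned to cornea or limbus.

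Of 40904 rows, 17484 had no gene name and 27 had a bare number for one, which left 23393 symbols, 17418 with a mean above 0 and 23543279 normalized reads in sum. The accession column of the table was not used, since 2 of 18556 accessions found in RefSeq belonged to the gene named beside them and none of the 9 genes' did. The size factors of 1.03 and 0.967 were worked out from the smallest means, whose ratio is 109 to 102. The reads of both libraries follow from the mean for 6137 genes, and 11281 genes allow several pairs. Whole numbers were judged to within 0.001 of the unit of the grid, and intervals are exact Poisson at the 95% level.

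Gene positions, exon lengths (the union of annotated exons) and transcripts were those of GENCODE vM21 for GRCm38. Older symbols were matched through RefSeq. The 9 genes, 7 pathway lists and 10 marker lists were chosen with earlier results of these data known. Beside the 9 genes, the text names the 2 genes of each pathway list with the highest mean, the lowest above 0 and those at 0. Any further gene was picked with its values in view. Likeness of pattern cannot be measured with 1 value per gene. Alternatives were other lengths, rankings, thresholds and tolerances. Python 3.11.15 with numpy 2.4.6, scipy 1.17.1, pandas 2.3.3, Biopython 1.88 and matplotlib 3.10.9 was used.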

Additional observations from a re-analysis of the deposited data

How the results depend on the processing

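Each value is a mean over cornea and limbus with no value per sample, so leaving out a replicate could not be run. No paired analysis was possible because the deposited table has no column for a numbered sample, and whether the numbers mark samples or sequencing lanes is not stated. The means fit 2 libraries, so the numbered samples were not separate replicates in them. The order of the 9 genes by level per kb was the same with the length of the longest transcript, but with the longest coding sequence 4 of 9 genes held their rank, because Ptges then ranked 2, Alox12 (3) passed Alox15 (4) and Aloxe3 passed Alox12b. The number of the 9 genes above the median gene was 5 when ranked among all genes with reads, among genes whose mean reached 10, among every named gene and, in a ranking per kb added after the data were seen, among protein-coding genes. The place of the low genes moved with the ranking. By mean, Alox5 lay above 48.3% and Ptgs2 above 46.3% of all named genes, those at 0 included. Among genes whose mean reached 10, they lay above 13.1% and 9.7%. With thresholds of 1 and 50 in place of 10, 55 and 34 pathway genes passed. All 9 means lay on the grid of the 2 steps at a tolerance of 0.001 of its unit and at a stricter and a looser one. For the 5 genes with several pairs this shows only that the mean lies on the grid, and not which pair is right. Of the 43 single-gene values recomputed, 34 moved beyond the counting interval. Depth limits Alox12b, Aloxe3, Ptgs2 and Alox5 most, with 9 to 84 reads each.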

Other observations

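For some pathway genes the mean also fixes the reads of both libraries, which the labels put in no tissue. The first number is again from the library with the larger size factor. Alox5ap had 6 and 82 reads, Ltc4s, the leukotriene C4 synthase, 0 and 15, and Dpep2, a dipeptidase that converts leukotriene D4, 21 and 31. Nipal4 had 10 and 58 and Cyp4f39 73 and 31. Of the receptors, Ptgfr had 2 and 91 reads, Ptger3 0 and 28, Ptgir 54 and 71 and Cysltr1 9 and 24. They were picked with their values in view, and other pathway genes split evenly, such as Mgst2 with 87 and 87 and Pla2g4f with 64 and 61. How many of the 6137 genes with fixed reads split as unevenly was not counted, so no skew of the pathway can be read from them. No difference between the libraries was tested.

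The text in the accession column belongs to other genes for all 9 genes described here. Alox12, Alox12b and Alox12e, for instance, stand beside accessions of Actr3. Markers such as Krt12 and Aldh3a1 were at the top of the means under the symbol column, which was therefore used for all names.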
